A study of Mus musculus with 4 samples.

Results

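The genes described here are 7 granzymes, Gzma, Gzmb, Gzmc, Gzmd, Gzme, Gzmf and Gzmg, with 3 further genes of cytotoxic lymphocytes, the pore-forming protein perforin (Prf1), the activating receptor NKp46 (Ncr1) and the beta chain shared by the receptors for interleukin 2 and interleukin 15 (Il2rb). They were taken by gene symbol, matched to the Entrez identifiers of the count files, and all 10 were found among 27179 genes. The genes were chosen as those of the uterine natural killer (NK) cell, and Gzmd to Gzmg were set against Gzma, Prf1, Ncr1 and Il2rb. Bulk RNA sequencing was done on mouse liver, in 2 libraries of fasted C57BL/6 wild-type mice kept overnight without food but with water, and in 2 libraries of non-fasted C57BL/6 wild-type mice that had food and water at all times. Both groups are labelled male and carry no other allele or agent, and the sources used here give no ages. Whether the 2 libraries of a group came from separate animals is not stated. They differed very little, with a common biological coefficient of variation, edgeR's estimate of variation beyond counting error, of 0.0099. The p-values, SEs and SDs given here describe only how far apart such libraries lie, possibly for technical reasons alone. Variation between animals was not tested. The comparison asks which transcripts differ with fasting.

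Granzymes are serine proteases that NK cells and cytotoxic T cells store in granules together with perforin. Perforin opens the membrane of the target cell, and granzymes A and B then cleave proteins inside it and start its death. NK cells depend on interleukin 15, which signals through Il2rb and the common gamma chain (Il2rg) to the kinases Jak1 and Jak3 and the factor Stat5. In the mouse, NK cells of the pregnant uterus are large granular cells known for granzymes and perforin, and Gzmd, Gzme, Gzmf and Gzmg are rodent genes that lie beside Gzmb and Gzmc on chromosome 14. Resting liver NK cells are known for Ncr1, Gzma and the lectin-like receptor Klrb1c (NK1.1).

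The libraries differed far beyond these genes. Total counts were 13528015 to 13541405 in fasted and 36943535 to 36975921 in non-fasted libraries. Xist, which coats the inactive X chromosome in females, had 2 and 1 counts in fasted and 25772 and 26316 counts in non-fasted libraries, against the male label, while 4 Y-linked genes had 242 to 1265 counts in fasted and 212 to 1074 counts in non-fasted libraries. Relative to total counts, each of these 4 Y-linked genes was lower in the non-fasted libraries. One label field names fasting for all 4 libraries, and the groups used here follow the sample titles. Of 15470 genes tested, 46% were lower and 37.8% higher in fasted livers. All 14 hepatocyte markers were higher, by 1.77 on the log2 scale at the median, and 11 of 11 tested trophoblast markers were lower. These 11 passed the filter on low counts only through their non-fasted counts, so their direction was fixed by it. Trophoblast markers, genes of the placenta, summed to 6 counts in each fasted library and to 2474684 and 2494607 counts in the non-fasted libraries.

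The sequences before the start sites of the chromosome 14 granzymes are shown because Gzmc to Gzmg, the 5 members with no count in fasted livers and at least 725 counts in each non-fasted library, share letters there that their neighbours Gzmb and Gzmn do not. Each line gives the 250 bases before the start in the RefSeq annotation of GRCm38.p6, 5′ to 3′ on the minus strand, in the order of the genes on the chromosome. They lie at chr14:56120626-56120875, chr14:56132594-56132843, chr14:56159580-56159829, chr14:56174600-56174849, chr14:56211408-56211657, chr14:56234658-56234907 and chr14:56262335-56262584. Capitals mark TGTGGT, the letters of a RUNX motif, or its reverse complement ACCACA, and the run of 20 bases that the 5 windows share.
Gzme: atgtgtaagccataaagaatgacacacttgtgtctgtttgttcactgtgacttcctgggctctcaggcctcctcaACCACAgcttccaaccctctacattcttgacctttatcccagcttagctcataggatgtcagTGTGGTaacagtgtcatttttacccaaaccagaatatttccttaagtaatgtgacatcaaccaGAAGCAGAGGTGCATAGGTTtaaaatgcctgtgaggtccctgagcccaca
Gzmd: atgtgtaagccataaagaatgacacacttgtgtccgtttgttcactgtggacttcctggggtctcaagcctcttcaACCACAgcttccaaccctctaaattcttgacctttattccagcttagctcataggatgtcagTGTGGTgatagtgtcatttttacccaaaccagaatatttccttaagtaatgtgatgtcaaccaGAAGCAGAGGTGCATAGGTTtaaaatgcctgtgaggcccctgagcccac
Gzmg: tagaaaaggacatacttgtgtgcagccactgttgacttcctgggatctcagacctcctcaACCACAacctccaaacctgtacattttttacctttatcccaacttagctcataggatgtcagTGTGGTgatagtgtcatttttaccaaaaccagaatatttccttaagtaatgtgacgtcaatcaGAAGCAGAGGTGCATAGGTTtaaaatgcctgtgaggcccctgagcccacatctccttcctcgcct
Gzmn: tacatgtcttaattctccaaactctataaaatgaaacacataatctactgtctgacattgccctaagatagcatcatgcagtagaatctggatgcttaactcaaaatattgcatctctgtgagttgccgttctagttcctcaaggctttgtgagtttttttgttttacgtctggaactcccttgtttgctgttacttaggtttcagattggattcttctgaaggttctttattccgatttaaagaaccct
Gzmf: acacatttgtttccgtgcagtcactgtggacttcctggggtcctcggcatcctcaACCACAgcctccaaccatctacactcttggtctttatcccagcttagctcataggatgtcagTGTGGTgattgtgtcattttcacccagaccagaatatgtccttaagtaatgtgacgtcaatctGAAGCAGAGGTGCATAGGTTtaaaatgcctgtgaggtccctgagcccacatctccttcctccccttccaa
Gzmc: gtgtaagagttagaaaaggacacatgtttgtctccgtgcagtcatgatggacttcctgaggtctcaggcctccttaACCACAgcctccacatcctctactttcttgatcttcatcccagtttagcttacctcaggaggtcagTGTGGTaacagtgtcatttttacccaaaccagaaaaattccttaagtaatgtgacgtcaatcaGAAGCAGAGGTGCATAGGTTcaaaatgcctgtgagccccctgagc
Gzmb: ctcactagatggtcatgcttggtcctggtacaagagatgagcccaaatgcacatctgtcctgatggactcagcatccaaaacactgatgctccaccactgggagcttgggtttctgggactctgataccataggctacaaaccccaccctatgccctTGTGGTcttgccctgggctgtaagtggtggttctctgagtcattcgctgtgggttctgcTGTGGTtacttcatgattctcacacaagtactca

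The shared run GAAGCAGAGGTGCATAGGTT stood in the windows of Gzmc, Gzmd, Gzme, Gzmf and Gzmg and in those of no other gene among 27025 genes with a window. It began 45 to 70 bases before the start. These 5 windows were alike along their length, with 84.4% to 95.6% identical bases in pairwise alignment, and Gzmd and Gzme were the closest pair. The windows of Gzmb and Gzmn did not hold the run. RUNX factors act in lymphocytes, and TGTGGT on either strand was in the windows of all 9 members that had one, against 16.8% of the 32851 windows of all genes, each 250 bases before to 50 after the start. TTCNNNGAA, the letters of a STAT5 motif, was held by the window of 1 member, Gzmb, outside the bases printed above, against 8.3% of all windows. The AP-1 letters TGACTCA and TGAGTCA were likewise found in Gzmb alone among the members, against 5.2% of all windows. No member window held AGGTGTGA (T-box, 1.28% of all windows) or the NF-kB motif searched (0.155%). Such matches describe letters only. Il2rb was not matched to a window.

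In fasted livers, Gzmc, Gzmd, Gzme, Gzmf and Gzmg had no count in either library, whereas in non-fasted livers each had between 725 and 2492 counts. Gzmf (Entrez 14943) had 0 and 0 counts in fasted livers, against 2405 and 2492 counts in non-fasted livers. Gzmg (14944) had 0 and 0 counts in fasted livers, against 1886 and 1812 counts in non-fasted livers. Gzmd (14941) had 0 and 0 counts in fasted livers, against 1722 and 1760 counts in non-fasted livers. The libraries of a group lay close together and the groups did not overlap for any of these 3 genes. Normalised counts were separated in this direction for 50.2% of all genes tested. Gzmc (14940) had 0 and 0 counts in fasted livers, against 1005 and 929 counts in non-fasted livers. Gzme (14942) had 0 and 0 counts in fasted livers, against 727 and 725 counts in non-fasted livers. Both were again separated without overlap. Since a count of 0 gives no fold, the fasted group was set to a floor of 3 counts over its 2 libraries. After median-of-ratios scaling the levels were then at least 421-fold lower in fasted livers for Gzmf, 318-fold for Gzmg, 300-fold for Gzmd, 166-fold for Gzmc and 125-fold for Gzme. With scaling to the hepatocyte markers the bounds were 426-fold for Gzme to 1436-fold for Gzmf. Among all genes tested, 5.12% had no count in either fasted library, and of 7093 genes with at least 700 counts in both non-fasted libraries 1.72% had none.

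**Figure D1:**
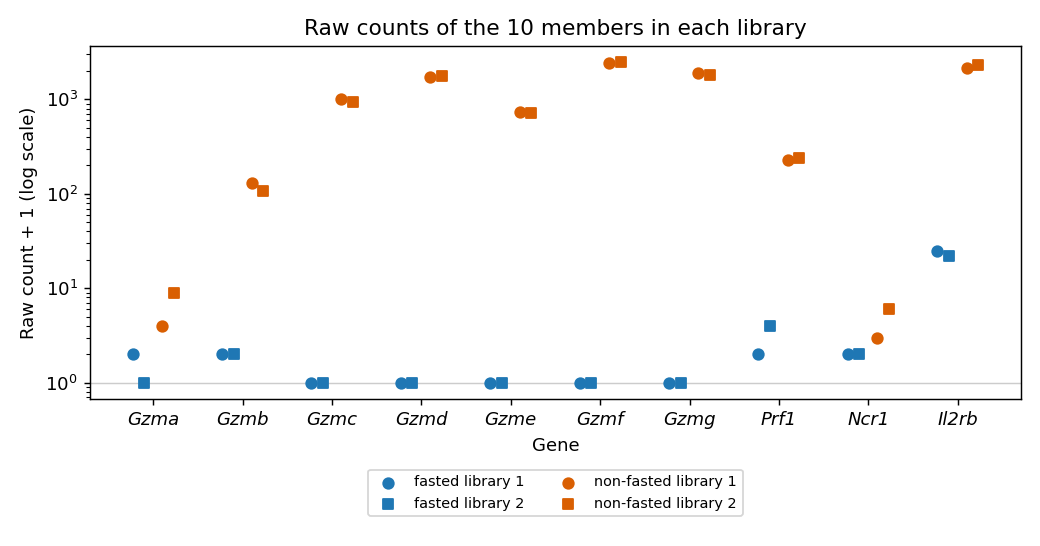
Raw count plus 1 on a log scale (y axis) for each of the 10 genes (x axis), with fasted libraries in blue on the left and non-fasted libraries in orange on the right of each gene. Circles are library 1 and squares library 2. Gzmc to Gzmg sit at 0 counts in fasted livers and at 725 to 2492 counts in non-fasted livers, while Gzma and Ncr1 stay at 8 counts or fewer in every library.

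Gzmb (14939), which triggers apoptosis in target cells, had 1 and 1 counts in fasted livers, against 128 and 107 counts in non-fasted livers. Its log2 fold change was -4.85 (SE 0.53), and the ratio of fasted to non-fasted levels was 0.033, with a counting interval of 0.00397 to 0.12. Prf1 (18646) had 1 and 3 counts in fasted livers, against 229 and 238 counts in non-fasted livers. Neither gene overlapped between groups, which for normalised counts in this direction held for 50.2% of all genes tested. Prf1 had a log2 fold change of -4.88 (SE 0.37) and a ratio of 0.0332 (counting interval 0.009 to 0.0855). The log2 fold change of Prf1 was -4.27 without fasted library 1 and -5.83 without fasted library 2. Il2rb (16185) had 24 and 21 counts in fasted livers, against 2156 and 2295 counts in non-fasted livers. It was the member with the most counts in fasted livers. Its normalised counts averaged 44.3 ± 4.06 in fasted and 1131 ± 50.5 in non-fasted livers (SD, n = 2 libraries each). Its log2 fold change was -4.67 (SE 0.12).

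Gzma and Ncr1, the genes by which resting NK cells are best known, stayed near 0 in both groups. Gzma (14938), a tryptase of the granules encoded on chromosome 13, had 1 and 0 counts in fasted livers, against 3 and 8 counts in non-fasted livers. Ncr1 (17086) had 1 and 1 counts in fasted livers, against 2 and 5 counts in non-fasted livers. Neither reached the filter on low counts. Scaled by median of ratios, Gzma in fasted livers was 0.352 times the non-fasted level, with a counting interval of 0.00818 to 2.42, and for Ncr1 the ratio was 1.11, with an interval of 0.112 to 5.81. Scaled to the hepatocyte markers, the ratio was 0.103 for Gzma (0.0024 to 0.711) and 0.325 for Ncr1 (0.0329 to 1.71). A difference in Ncr1 was thus not detectable at this depth. For Gzma the interval excluded a ratio of 1 with hepatocyte marker scaling but not with median of ratios. With hepatocyte marker scaling 90.3% of all genes tested were lower, and the Gzma ratio rests on 1 against 11 counts. No change particular to Gzma can be read from it. Because Ncr1 was under 10 counts in every library, no ratio to it is given.

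In all, 8 of the 10 genes passed the filter. All 8 were lower in fasted livers by edgeR's quasi-likelihood test, where 46% of all genes tested were lower. All but Il2rb passed the filter only through their non-fasted counts. Their direction was thus fixed by the filter, and the count of 8 is no support beyond the counts themselves. By this test the adjusted p-values of the 8 genes were at most 1.26e-19, which need not cover variation between animals. With edgeR's robust estimation off they were 7.24e-10 to 2.05e-05, and 45% of all genes were lower. The normalised counts of all 8 did not overlap between groups, which in this direction held for 50.2% of all genes tested. Scaling moved the median log2 fold change of all genes, which was -0.13 with median of ratios, -0.63 with total counts, -1.28 with the 5 pan-leukocyte markers and -1.90 with the hepatocyte markers, and the 8 genes were lower with each. The share of all genes that were lower was 63.5% with total counts, 79.3% with the pan-leukocyte markers and 90.3% with the hepatocyte markers, where 4.73% were higher. Gzmb, Prf1 and Il2rb differed by more than these shifts, with log2 fold changes of -6.53, -6.60 and -6.44 when scaled to the hepatocyte markers. In bulk liver, fewer cells of a type and less RNA per cell cannot be told apart. The non-fasted libraries also held trophoblast and decidual transcripts. The part of RNA from such tissue in these differences cannot be told apart from fasting and was not tested.

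The members' levels were set in order by CPM, counts per 1000000 counts of the library, per kb of exon in non-fasted livers. Gzmf was first, with 70.8 and 73.4 CPM per kb, before Gzmg with 56.1 and 54.0, Gzmd with 48.3 and 49.4, and Gzmc with 30.4 and 28.1. Gzme followed with 21.5 and 21.4 CPM per kb, and Il2rb with 13.6 and 14.5. Down to Il2rb the libraries of neighbouring genes did not overlap. Prf1, with 2.40 and 2.49 CPM per kb, and Gzmb, with 2.41 and 2.02, were far lower and could not be ordered, since their libraries overlapped. Gzma, with 0.0807 and 0.215 CPM per kb, and Ncr1, with 0.0351 and 0.0879, also overlapped. In fasted livers Il2rb was first, with 0.413 and 0.362 CPM per kb, and no other member exceeded 0.0858. By mean CPM, without regard to length, 2676 genes lay above Gzmf and 2955 above Il2rb in non-fasted livers, of 21060 genes with a count there.

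**Figure D2:**
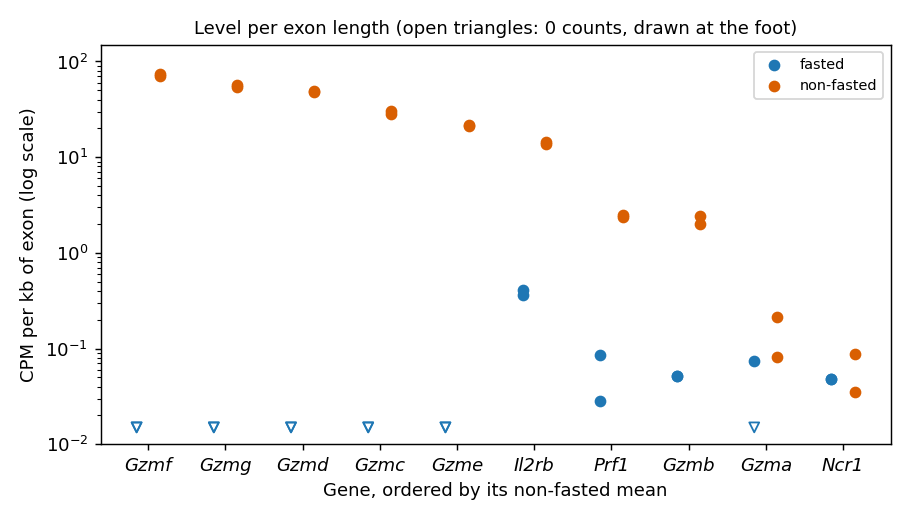
CPM per kb of exon on a log scale (y axis) for each gene in the order of its non-fasted mean (x axis), with the 2 fasted libraries in blue on the left and the 2 non-fasted libraries in orange on the right of each gene. Open triangles at the foot stand for 0 counts. Gzmf to Gzme lie between 21.4 and 73.4 in non-fasted livers, above Il2rb, while Prf1 and Gzmb overlap near 2.

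Within each library, Gzmd to Gzmg were set against Gzma, Prf1, Ncr1 and Il2rb, a comparison that needs no scaling between libraries. In fasted livers Gzmd to Gzmg took 0 of 27 and 0 of 25 counts of the 8 genes, which allows shares of up to 11.1% and 12% by a floor of 3 counts per library (Wilson upper limits 12.5% and 13.3%). In non-fasted livers they took 6740 of 9130 counts, or 73.8% (Wilson 95% interval 72.9 to 74.7%), and 6789 of 9335 counts, or 72.7% (71.8 to 73.6%). The mean share was 0% in fasted and 73.3% in non-fasted livers, without overlap. The 0% follows from the absence of any Gzmd to Gzmg count in fasted livers, given above, and is no further support. By an exact permutation test, two-sided, p was 0.333, the smallest that 2 against 2 libraries can give. Il2rb made up most of the counts of the 4 other genes. Without it, an alternative chosen after seeing the data, the share was 96.6% and 96.4% in non-fasted livers, against 0 of 3 and 0 of 4 counts in fasted livers, too few for a limit of use.

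Among the 6 granzymes of chromosome 14, the non-fasted libraries held nearly the same mixture. Gzmf took 30.5% and 31.8% of their summed counts, Gzmg 24.0% and 23.2%, and Gzmd 21.9% and 22.5%. Gzmc took 12.8% and 11.9%, Gzme 9.23% and 9.27%, and Gzmb 1.63% and 1.37%. The Wilson intervals of the 2 libraries overlapped for each of the 6 genes. The counting may have split or dropped reads that fit several of these paralogs, which was not tested. Transcripts of Gzmd to Gzmg are 86.4% to 94.8% identical in pairwise alignment. Of all stretches of 50 bases in the exons of Gzmd, 21.9% occur in another gene as well, and the same holds for 20.6% of Gzme, 19.4% of Gzmf and 19.8% of Gzmg, but for 4.14% of Gzmc and none of Gzmb. For stretches of 100 bases the share is 6.71% in Gzmf, all of it with the annotated antisense transcript Gm4022, and at most 0.247% in the others. The single values of Gzmd to Gzmg are therefore uncertain.

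The genes next to the granzymes on chromosome 14 were counted as well. Gzmn lies between Gzmg and Gzmf, and its transcript is 83.0% to 84.4% identical to those of Gzmd to Gzmg. It had 0 and 0 counts in fasted livers, against 0 and 2 counts in non-fasted livers. Cathepsin G (Ctsg), a protease of neutrophil granules on the side of Gzme, had 0 and 0 counts in fasted livers, against 46 and 35 counts in non-fasted livers, and was at least 6.97-fold lower in fasted livers. The mast cell proteases Mcpt2, Mcpt9, Mcpt4 and Mcpt8 beyond it had at most 2 counts in fasted and at most 6 counts in non-fasted livers. On the side of Gzmb, the proton pump gene Atp12a had 0 and 0 counts in fasted livers, against 7 and 3 counts in non-fasted livers. Rnf17, a germ cell gene, had 1 and 1 counts in fasted livers, against 106 and 97 counts in non-fasted livers, with a log2 fold change of -4.64. The next genes Cenpj, Parp4 and Mphosph8 had log2 fold changes of -1.71, -0.90 and -0.27. Rnf17, Cenpj, Parp4 and Mphosph8 were each lower in fasted livers by the test, which was so for 46% of all genes.

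**Figure D3:**
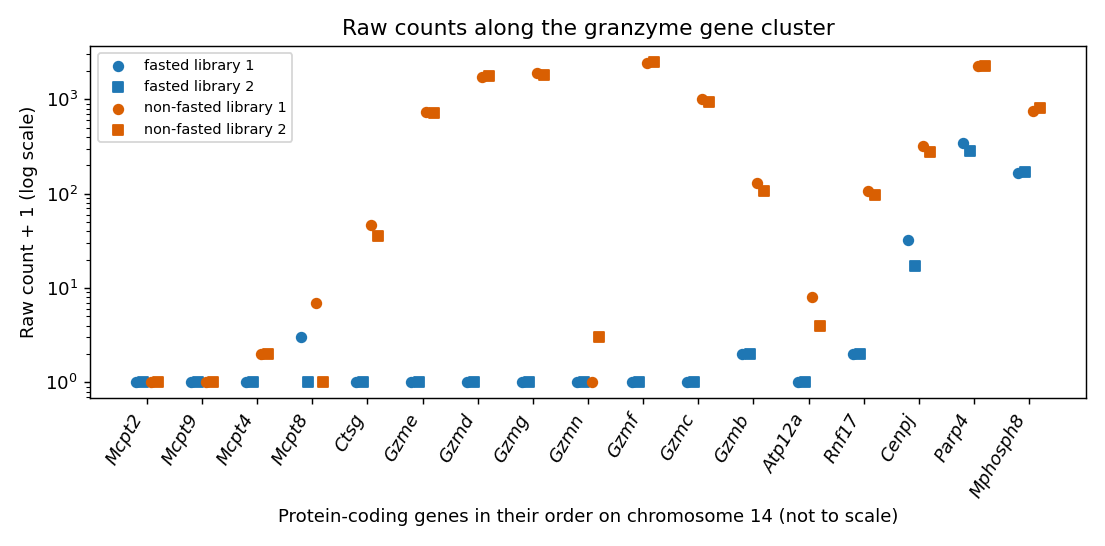
Raw count plus 1 on a log scale (y axis) of 17 genes in their order on chromosome 14 (x axis, not to scale), with fasted libraries in blue on the left and non-fasted libraries in orange on the right of each gene. Gzme, Gzmd, Gzmg, Gzmf and Gzmc lie at 725 to 2492 counts in non-fasted livers, with Gzmn at 0 and 2 counts between them.

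Of 11 other granule proteases listed, 2 passed the filter. Both, Ctsg and the mast cell chymase Cma1, had no count in fasted livers. Cma1 had 0 and 0 counts in fasted livers, against 212 and 222 counts in non-fasted livers, and was at least 37.3-fold lower in fasted livers. The T and NK cell granzymes elsewhere in the genome had few counts or none, with Gzmm at 0 and 0 counts in fasted and 17 and 9 counts in non-fasted livers and Gzmk at 0 counts in all 4 libraries. Cma2 had no count in fasted livers and 4 and 4 counts in non-fasted livers, and Mcpt1 had no count in fasted livers and 1 and 1 counts in non-fasted livers. Granzyme and chymase counts beyond Gzmb to Gzmg were thus few in non-fasted livers, apart from Cma1 and Ctsg.

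The label of these genes as those of NK cells was set beside receptors and other markers of such cells, which gave no single direction. Klrb1c had 5 and 11 counts in fasted livers, against 4 and 3 counts in non-fasted livers. Klrd1, the partner chain of the NKG2 receptors, had 4 and 4 counts in fasted livers, against 6 and 14 counts in non-fasted livers. Nkg7, a protein of cytotoxic granules, had 4 and 8 counts in fasted livers, against 11 and 16 counts in non-fasted livers. These markers, named after their values were seen, had few counts in every library, as did Ncr1 and Gzma. Their counts were low in fasted livers too, so they cannot tell the cell source of the members, which was not tested. Of 27 NK receptors and adaptors, 6 passed the filter, with 3 higher and 3 lower in fasted livers, where 37.8% and 46% of all genes were. With hepatocyte marker scaling, 0 of the 6 were higher, 4 were lower and 2 were not past the test. Under that scaling 4.73% of all genes tested were higher and 90.3% lower. Their summed level was 26.2 to 28.1 CPM in fasted and 45.8 to 47.2 CPM in non-fasted livers, and 3 of the 27 had no count in any library. Cd244a (2B4), a receptor of the SLAM family, stood apart with 0 and 2 counts in fasted livers, against 837 and 819 counts in non-fasted livers. Its log2 fold change was -7.67 (SE 0.29). Klrg1 was lower too, with 0 and 1 counts in fasted livers, against 27 and 25 counts in non-fasted livers. Fcer1g was also lower, with 109 and 71 counts in fasted livers, against 453 and 476 counts in non-fasted livers. The log2 fold change of Fcer1g was -0.41. The activating receptor Klrk1 (NKG2D) went the other way, with 26 and 19 counts in fasted livers, against 20 and 16 counts in non-fasted livers. The log2 fold change of Klrk1 was 2.26, and with hepatocyte marker scaling it was 0.50 and not past the test. Tyrobp, the adaptor DAP12 that myeloid cells also express, had a log2 fold change of 1.53, which turned to -0.24 with hepatocyte marker scaling. Hcst was also higher, with a log2 fold change of 1.59, which was -0.15 and not past the test with hepatocyte marker scaling.

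Markers of T cells, the other main source of granzyme and perforin, had few counts as well. The 14 T cell markers summed to 7.10 to 8.42 CPM in fasted and 6.95 to 7.74 CPM in non-fasted livers, and 5 of them passed the filter. Cd3e, a chain of the T cell receptor complex, had 5 and 3 counts in fasted livers, against 2 and 6 counts in non-fasted livers, and Cd8a had 4 and 1 counts in fasted livers, against 13 and 10 counts in non-fasted livers. Ptprc (CD45), carried by all white blood cells, had 192 and 154 counts in fasted livers, against 191 and 193 counts in non-fasted livers. The summed level of the 5 pan-leukocyte markers was 44.9 to 45.7 CPM in fasted and 26.1 to 27.5 CPM in non-fasted livers. In non-fasted livers, the counts of Gzmf, Gzmg, Gzmd, Gzmc, Gzme and Il2rb were thus each above those of Ptprc.

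Mast cell, decidual and trophoblast markers were counted as well, since such cells can carry granule proteases or lie beside uterine NK cells. Of 7 mast cell markers, Kit was lower and Hdc higher in fasted livers, with log2 fold changes of -4.17 and 4.45, and the defining tryptases Tpsb2 and Tpsab1 had no count in fasted and 1 to 4 counts in non-fasted livers. Decidual stroma markers summed to 25.6 to 27.2 CPM in fasted and 4774 to 4819 CPM in non-fasted livers. By the test 9 of 10 were lower in fasted livers, where 46% of all genes were, and 1 was higher. The 5 at 0 in fasted livers, as were 5.12% of all genes tested, passed the filter only through their non-fasted counts. Among them, Prl8a2, a prolactin-family gene of the mouse decidua, had 0 and 0 counts in fasted livers, against 76510 and 78124 counts in non-fasted livers. The progesterone receptor Pgr had 0 and 0 counts in fasted livers, against 1409 and 1466 counts in non-fasted livers. Trophoblast markers summed to 0.443 to 0.444 CPM in fasted and 66927 to 67525 CPM in non-fasted livers, with 6 of 12 at 0 in fasted livers. Bmp2 of the decidual list went the other way, with 233 and 227 counts in fasted livers, against 179 and 179 counts in non-fasted livers. The log2 fold change of Bmp2 was 2.31, and 0.55 with hepatocyte marker scaling. The other tested genes of both lists were lower, as were Gzmb to Gzmg, Prf1 and Il2rb. The part of decidual and trophoblast tissue in the difference was not tested.

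**Figure D4:**
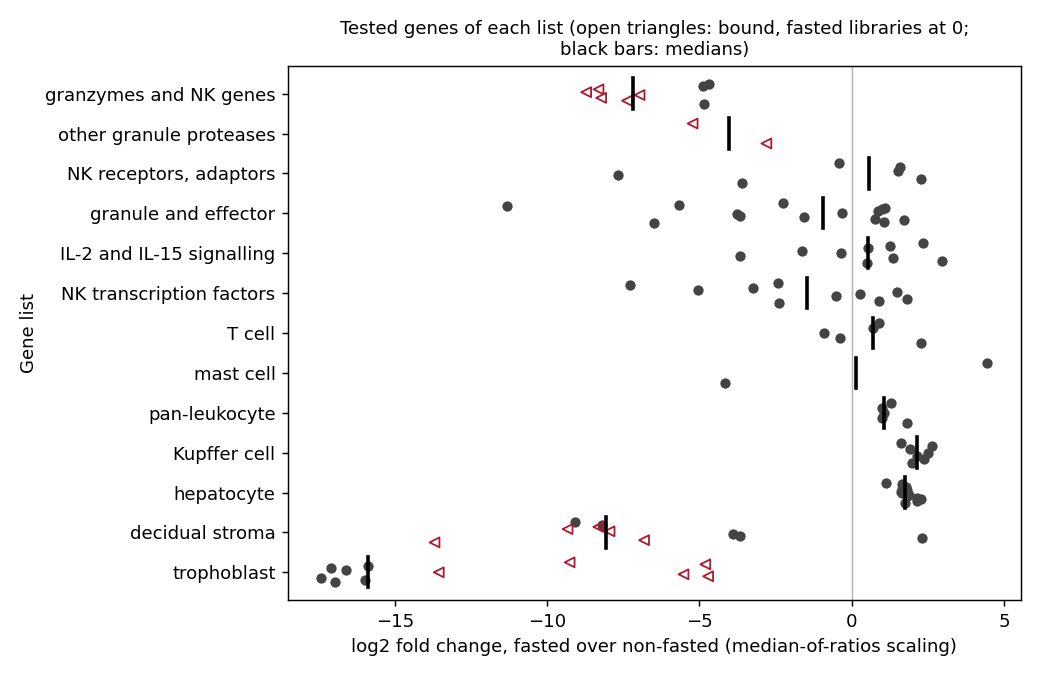
Log2 fold change, fasted over non-fasted, after median-of-ratios scaling (x axis) for the tested genes of each list (y axis). Filled points are fitted values, open triangles are bounds for genes with no count in fasted livers, and black bars are medians. All 8 tested granzyme and NK genes lie left of 0, as do the 11 trophoblast markers. All of these but Il2rb passed the filter only through their non-fasted counts, which fixed their side. The 6 tested NK receptors and adaptors fall on both sides. Of all genes tested, 46% were lower and 37.8% higher in fasted livers.

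Il2rb was not alone among the genes of its receptor. Il2rg, the common gamma chain, had 36 and 47 counts in fasted livers, against 2040 and 2068 counts in non-fasted livers, with a log2 fold change of -3.67 (SE 0.10). Jak3, the kinase bound to this chain, had 95 and 72 counts in fasted livers, against 1017 and 996 counts in non-fasted livers, with a log2 fold change of -1.64 (SE 0.10). In non-fasted livers both receptor chains thus had counts of like size. Il15ra, which presents interleukin 15 to the beta and gamma chains, was higher in fasted livers, with 395 and 346 counts, against 188 and 176 counts in non-fasted livers and a log2 fold change of 2.98 (SE 0.09). Cish, a target and inhibitor of Stat5, was also higher, with 361 and 396 counts in fasted livers, against 276 and 297 counts in non-fasted livers. Il15 itself had 5 and 14 counts in fasted livers, against 28 and 24 counts in non-fasted livers, and was not past the test, and Il2 had no count in any library. Over the 10 genes of interleukin 2 and 15 signalling, 9 were tested, of which 5 were higher, 3 lower and 1 not past the test in fasted livers, where 37.8% of all genes were higher and 46% lower. With hepatocyte marker scaling 2 were higher, 6 lower and 1 not past the test, where 4.73% of all genes were higher and 90.3% lower. Il2rb, Il2rg and Jak3 were lower and Il15ra and Cish higher with either scaling.

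Of 19 genes of cytotoxic granules listed beside the granzymes and perforin, 14 were tested, with 8 lower, 4 higher and 2 not past the test in fasted livers, where 46% of all genes were lower and 37.8% higher. Serglycin (Srgn), the proteoglycan that packs granzymes in granules and is made by many other cells, had 110 and 116 counts in fasted livers, against 39526 and 39995 counts in non-fasted livers, with a log2 fold change of -6.50 (SE 0.03). Rab27a and Stx11, which carry granules to the membrane, had log2 fold changes of -3.67 and -3.76. Serpinb9, an inhibitor of granzyme B, had 96 and 117 counts in fasted livers, against 2017 and 1955 counts in non-fasted livers. The protease that activates granzymes, cathepsin C (Ctsc), had 948 and 899 counts in fasted livers, against 1098 and 1060 counts in non-fasted livers. The log2 fold change of Ctsc was 1.73, which turned to -0.04, not past the test, with hepatocyte marker scaling. Ctla2a, an inhibitor of cysteine proteases that is also made in the pregnant uterus, had 36 and 35 counts in fasted livers, against 347876 and 352662 counts in non-fasted livers. It had the most counts of the list in non-fasted livers. With hepatocyte marker scaling 10 genes were lower, 4 were not past the test and none was higher. Of all genes tested, 90.3% were lower and 4.73% higher under that scaling. Of the cytokines and death ligands of NK cells, Ifng had 0 and 0 counts in fasted and 2 and 4 counts in non-fasted livers, and Fasl had 0 and 0 counts in fasted and 5 and 12 counts in non-fasted livers. Tnfsf10 (TRAIL) had more, with 87 and 81 counts in fasted livers, against 165 and 164 counts in non-fasted livers. Its log2 fold change was 0.98, higher in fasted livers, which turned to -0.78, lower, with hepatocyte marker scaling.

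Transcription factors that NK cells use were set beside all genes tested. Of 11 matched genes 10 were tested, with 6 lower and 4 higher in fasted livers, where 46% of all genes were lower and 37.8% higher. With hepatocyte marker scaling, under which 90.3% of all genes were lower, 8 were lower, 1 higher and 1 not past the test. The defining T-box factors were scarce. Tbx21 (T-bet) had 5 and 1 counts in fasted livers, against 2 and 7 counts in non-fasted livers, and Eomes had 2 and 1 counts in fasted livers, against 36 and 27 counts in non-fasted livers. Gata3, a factor of lymphocytes and of trophoblast, had 2 and 3 counts in fasted livers, against 1589 and 1473 counts in non-fasted livers, with a log2 fold change of -7.28 (SE 0.20). Prdm1 (Blimp-1) had 11 and 10 counts in fasted livers, against 1374 and 1311 counts in non-fasted livers, with a log2 fold change of -5.04 (SE 0.16). Runx3, whose family's letters stand in the granzyme windows shown above, had 0 and 1 counts in fasted livers, against 18 and 22 counts in non-fasted livers. Id2, needed for NK cell development and made by hepatocytes too, had 2853 and 2960 counts in fasted livers, against 3213 and 3106 counts in non-fasted livers, with a log2 fold change of 1.83 that was 0.06 with hepatocyte marker scaling.

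The genes whose pattern lay nearest to the mean of Gzmd to Gzmg were found by Euclidean distance of log2(CPM + 1) over the 4 libraries. The nearest 5 were 4933402E13Rik (distance 0.0152), Cdx2 (0.0572), Zim1 (0.0739), Nxf7 (0.0882) and Gucy1b2 (0.109). Each had no count in fasted livers and between 1450 and 1626 counts in the non-fasted libraries, near the level of Gzmd. Cdx2, a homeobox factor of trophoblast and intestine, had 1498 and 1517 counts there. No NK or T cell gene of the lists was among the 5. The members were left out, and the distance depends on level, so genes with few counts could not come near. The cell source of the granzymes cannot be read from it.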

How the data were processed

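The authors deposited raw counts per gene by Entrez identifier. According to the processing notes, the tools were Trimmomatic, STAR, featureCounts, FastQC, MultiQC and DESeq2 1.32.0 and the build GRCm39. The sources used here state neither strand nor multi-mapping settings. Symbols (25275 of 27179 identifiers), windows and gene order come from RefSeq tables of GRCm38.p6, and exon lengths, used in place of coding lengths, and transcripts from GENCODE M21 (alignment with Biopython 1.88). Protein identity was not analysed here.

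Counts, 13528015 to 36975921 per library, were filtered with filterByExpr, scaled by median of ratios and tested in R 4.3.3 with edgeR 4.0.16 (quasi-likelihood, robust, two-sided, Benjamini-Hochberg over 15470 genes, threshold 0.05). Robust estimation gave infinite prior degrees of freedom and was also turned off, a choice made after seeing the data. Normalised counts are counts over the size factor. Intervals of shares are Wilson and those of ratios exact binomial, at 95%, and like the floor of 3 counts (per group for folds, per library for shares) they cover counting error only. Same-numbered libraries did not deviate together (correlation -0.0035) and were not paired.

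The 10 genes and 12 further lists were chosen with earlier results of these data known. Named genes are the members, other granule proteases, chromosomal neighbours, nearest patterns and, per list, genes with the largest change, the highest count or the opposite direction. Further marker genes and the sex-linked genes were named after their values were seen. Alternatives were TMM, upper quartile, total count and marker gene scaling, DESeq2 1.42.0, limma 3.58.1 with voom, other filters, fixed coefficients of variation, a minimum fold, thinning, a replicate block and leaving out each library.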

Additional observations from a re-analysis of the deposited data

How the results depend on the processing

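All 8 tested members were lower in fasted livers under every alternative in which they were tested. Their adjusted p-values reached at most 0.00166, for Gzmb by edgeR without non-fasted library 1. With at least 10 counts required in every library, 1 member, Il2rb, was tested and 1 was lower, since the others have fewer counts in fasted livers. Without a filter, the log2 fold change was -1.44 for Gzma (edgeR adjusted p = 0.43) and 0.11 for Ncr1 (0.94). Over all genes, 7112 were lower and 5849 higher. The higher calls were 3608 with total counts, 732 with hepatocyte and 1644 with leukocyte marker scaling, 3714 and 1648 with coefficients of variation of 0.2 and 0.4, and 2296 with a minimum fold of 2. The lower calls were 13976 with hepatocyte and 12263 with leukocyte marker scaling, 3691 with a coefficient of 0.4 and 4042 with the minimum fold. The replicate block left 8 members lower, with 6891 genes lower and 5721 higher, and changed no call of a member. The difference in share of Gzmd to Gzmg, fasted minus non-fasted, was -73.3 percentage points, -75.8 with Gzmc and -96.5 without Il2rb, the last resting on 3 and 4 counts in the fasted libraries. Groups of 2 libraries, and sums of 28 and 26 counts over all members in the fasted libraries, limit what can be read there.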
